A study of Mus musculus with 15 samples.

Results

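DNase hypersensitive peaks of preSertoli cells from E13.5 mouse testes were set against the H3K27ac domains of preSertoli cells of the same stage. All 88107 peaks of the E13.5 DNase list and all 28586 domains of the H3K27ac list were taken, and each peak was placed by its distance to the nearest domain. These lists rest on 5 of the 15 samples of the series. They are 1 DNase-seq library, 2 H3K27ac ChIP-seq libraries and 2 input libraries. The series set out to map regulatory elements in preSertoli cells.

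The DNase-seq cells came from male embryos described as heterozygous for Sox9, fathered by C57BL/6J males homozygous for a Sox9-ECFP transgene and carried by CD-1 females. Sox9 drives Sertoli cell fate, and its reporter marks the cells for sorting. The ChIP-seq and input libraries came from sorted E13.5 preSertoli cells of the same F1 cross (C57BL/6J x CD-1), pooled from several sorts, and their labels do not name the reporter. For DNase-seq, nuclei were digested by enzymes the cells already held, in place of added DNase I. None of these groups carried a treatment, and no group was an untreated or wild-type control. Neither list names genes, so the cells were not checked here against their marker genes.

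PreSertoli cells are the supporting cells of the fetal testis. They enclose the germ cells in cords and secrete the hormone that removes the female ducts. Open chromatin, where nucleosomes are displaced by transcription factors, is cut easily by nucleases. H3K27ac, acetylation of histone H3 at lysine 27, is carried by the nucleosomes that flank active promoters and enhancers. Open sites without the mark are known to include insulators bound by CTCF and poised or silenced elements.

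The 1 DNase library and the single domain list leave no replicates between which a spread could be taken, so no p-value is given. Each share is given with its Wilson 95% interval, which allows for counting alone, and the range over the 19 autosomes is given as a measure of spread. The read depth behind either list is unknown. Peak height is the authors' signal value per peak, with a median of 0.108 and a highest value of 3.3165, and it is used here as a percentile within the E13.5 list. Peaks of 1 library share their source and are not replicates of a condition.

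A peak was counted as inside when at least 1 bp of it lay in a domain, as near when its gap to a domain was at most 1 kb, and as far otherwise. Inside peaks numbered 27736, which is 31.5% of the list (interval 31.2 to 31.8). Near peaks numbered 2223, or 2.52% (2.42 to 2.63), and far peaks 58148, or 66.0% (65.7 to 66.3). Most peaks of this list therefore had no H3K27ac domain within 1 kb. The list includes weak calls, with a lowest −log10 p, as read here, of 1.3. The median −log10 p was 3.35 for inside peaks, 1.71 for near peaks and 1.84 for far peaks. Over the autosomes the inside share ran from 28.8% on chromosome 1 to 35.3% on chromosome 10.

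Counted in bases, the balance was more even. The peaks covered 38.0 Mb, and 18.1 Mb of that, 47.7%, lay in domains. Conversely, peaks took up 25.4% of the 71.1 Mb covered by domains. Inside peaks made up 49.7% of the total peak width and far peaks 48.8%, since inside peaks were wider.

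Inside peaks were taller than peaks elsewhere. Their median height was 0.190, against 0.0876 for near peaks and 0.0953 for far peaks. As percentiles of the list these medians stood at 73.7 for inside peaks (quartiles 44.1 and 90.5), 35.6 for near peaks (17.3 and 58.4) and 41.8 for far peaks (20.5 and 64.4). The inside and far distributions overlapped broadly, with medians 31.8 percentile points apart. The inside median lay above the far median on 21 of 21 chromosomes, and on the autosomes the inside medians (68.3 to 77.0) did not overlap the far medians (39.3 to 44.6).

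The highest peaks were mostly inside domains. Of all inside peaks, 26.1% belonged to the highest 10% of the list, against 1.26% of near peaks and 2.66% of far peaks. Read the other way, 82.2% (81.3 to 82.9) of the 8809 peaks in that highest band were inside a domain. In the lowest band of 10%, 15.9% (15.1 to 16.6) were inside. The inside share was 15.9% in each of the 2 lowest bands, and every later band had a higher share than the band before it. The increase was uneven, from 15.9% to 35.5% over the first 8 bands, then to 52.0% and 82.2% in the 2 highest.

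**Figure D1:**
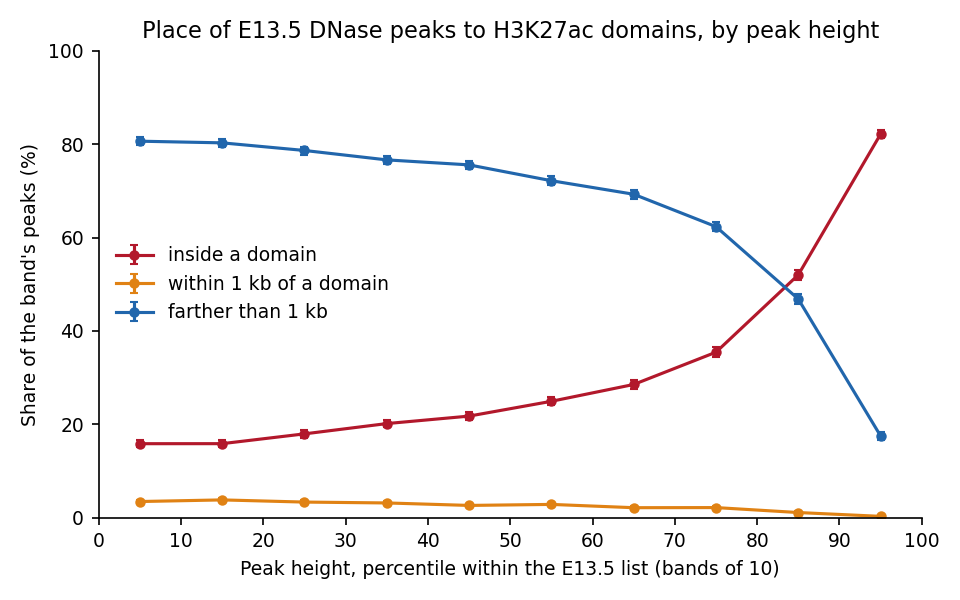
Share of peaks (%, vertical axis) inside a domain, within 1 kb and farther away, in 10 bands of peak height (percentile within the E13.5 list, horizontal axis); bars are Wilson 95% intervals. The inside share climbed from 15.9% in the lowest band to 82.2% in the highest, and the inside and far lines crossed between the eighth and the ninth band.

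At the very top the inside share stayed high. Of the 5000 tallest peaks 87.5% (interval 86.6 to 88.4) were inside. Among the 1000 tallest peaks 910 were inside (91.0%, interval 89.1 to 92.6), 2 near and 88 far. Among the 100 tallest, 86 were inside (86.0%, interval 77.9 to 91.5), none near and 14 far. The intervals of the 100 and the 1000 tallest overlap, and each smaller set is part of the larger ones.

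Of the 5 tallest inside peaks, 4 were alone in their domain. The first, on chromosome 8 from 86175986 to 86177533, had a height of 1.703 and a width of 1548 bp, and was the only peak in a domain of 3200 bp. The next, on chromosome 2 from 121274467 to 121276052, had a height of 1.3699 and lay alone in a domain of 4800 bp. The third was on chromosome 10 from 79370961 to 79371880 (height 1.3148) and the fourth on chromosome 5 from 35291382 to 35292632 (height 1.3112). These were again alone in domains, of 2200 bp each. The fifth, on chromosome 2 from 131059384 to 131060344 (height 1.3038), shared its domain of 2000 bp with another peak 49 bp away.

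The tallest peak of the whole list was far from any domain. It lay on chromosome 17 from 39979767 to 39985980, with a height of 3.3165, a width of 6214 bp and a gap of 420 kb to a domain. Its nearest neighbouring peak was 268 kb away, so it stood alone in its surroundings. No filter for repeated sequence was applied to the list here, and the part of such sequence in its height was not tested. The second tallest, on chromosome 11 from 108872785 to 108873572, was also far (height 2.1482, gap 19.6 kb). The next far peaks were on chromosome 17 from 36368013 to 36368738 (1.4522, gap 24.5 kb), on chromosome 11 from 118337818 to 118338676 (1.3368, gap 6.02 kb) and on chromosome 15 from 75577352 to 75579607 (1.2882, gap 41.2 kb). The last of these was the only one of the 5 with another peak close by, at 182 bp.

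Near peaks reached lower heights. The tallest, on chromosome 7 from 135078731 to 135079899, had a height of 0.9316 and a gap of 930 bp to a domain that held 2 peaks. The next, on chromosome 8 from 13200144 to 13201539, had 0.9156 at 461 bp from a domain that also held 2 peaks. Those on chromosome 15 from 37835525 to 37836322 (0.6682, gap 78 bp) and on chromosome 3 from 87559708 to 87560359 (0.6491, gap 641 bp) adjoined domains with no peak. The other one of the 5 lay on chromosome 6 from 137403901 to 137404658 (0.6604), at 942 bp from a domain with 1 peak.

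Inside peaks were also wider. Their median width was 573 bp (quartiles 300 and 955), against 229 bp (146 and 346) for near peaks and 259 bp (159 and 396) for far peaks, a ratio of 2.21 for inside over far. Peaks of 1 kb or more made up 22.7% of inside peaks, 0.720% of near peaks and 2.44% of far peaks. The inside median width exceeded the far one on 21 of 21 chromosomes. On the autosomes inside medians ran from 492 to 621 bp and far medians from 239 to 277 bp, with no overlap.

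Width and height go together in this list, with a Spearman rho of 0.92 across all 88107 peaks, which share 1 library and 1 peak caller. Each measure was therefore compared at like values of the other. At like height, inside peaks were wider than far peaks in all 10 bands. The gap was small among low peaks, with medians of 86 bp inside and 78 bp far in the lowest band. It grew with height, to 591 bp inside and 438 bp far in the eighth band and 1090 bp inside and 758 bp far in the highest. The highest band ran from 0.3964 to 3.3165 in height, so heights within it were not closely matched. Among the 1000 tallest peaks the median widths were 1206 bp inside and 1034.5 bp far. A wide peak meets a domain edge more readily than a narrow one under a 1 bp rule. When the midpoint had to lie in the domain, which takes this advantage away, inside peaks were 324 bp wider than far peaks in the median over all heights, against 314 bp under the 1 bp rule. When the whole peak had to lie in the domain, which disfavours wide peaks, they were 280 bp wider. The midpoint rule moved 712 inside peaks to near, and both rules left the far median at 259 bp. Neither rule was run within bands of height, so the part of the 1 bp rule in the differences at like height was not tested.

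**Figure D2:**
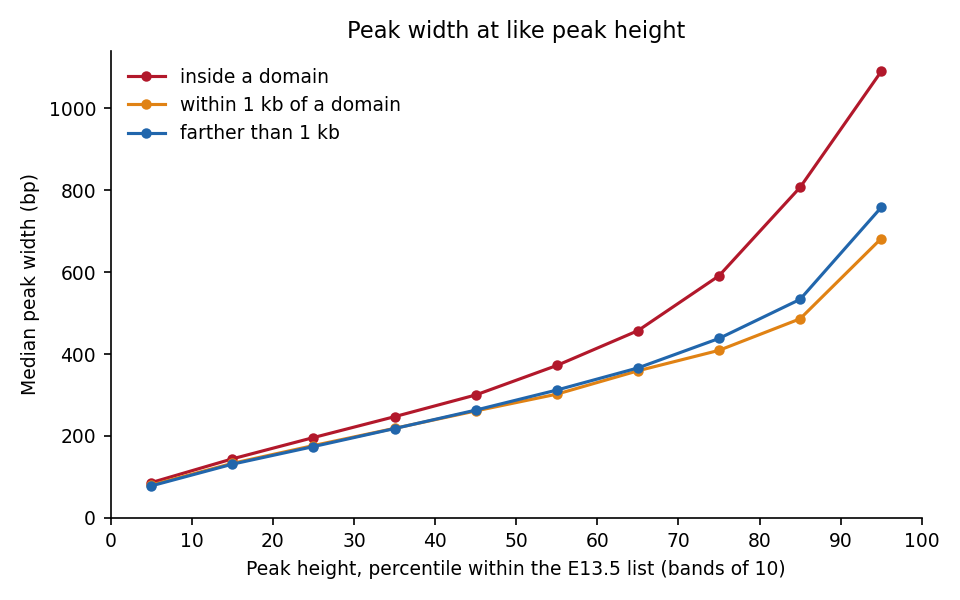
Median peak width (bp, vertical axis) of the 3 classes in 10 bands of peak height (percentile within the list, horizontal axis). The inside line lies above the far line in all 10 bands, by 8 bp in the lowest and 332 bp in the highest. The near line stays close to the far line in the lower bands and lies below it in the highest, at 682 bp against 758 bp.

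At like width the difference in height depended on the width. In the 7 narrowest of 10 width bands, up to 468 bp, inside peaks were lower than far peaks, with inside minus far between -1.02 and -5.34 percentile points. In the eighth band the difference was 0.42 points. In the 2 widest bands, from 635 bp up, inside peaks were taller by 9.32 and 9.49 points. In the widest band, of 945 bp or more, the median percentiles were 93.5 inside and 84.0 far. This band ran up to 9787 bp, so widths within it were not closely matched. The inside share itself went from 13.4% in the narrowest band to 80.5% in the widest. Among narrow peaks, a place inside a domain thus did not go with greater height.

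Near peaks were the lowest class under this rule. The near median minus the far median was -6.20 percentile points in height and -30 bp in width, and both were below 0 on 21 of 21 chromosomes. On Y this rested on only 2 near peaks and 16 far peaks, and on X on 28 near peaks. At like height near peaks were wider than far peaks in the 4 lowest bands, by 0.5 to 2.5 bp, and narrower in the 6 higher ones. In the highest band, with 28 near peaks, the medians were 682 bp near and 758 bp far. The order of near and far peaks rested on the rule for inside. When the midpoint of a peak had to lie in the domain, near peaks stood at a median percentile of 42.0 and far peaks at 41.8. When the whole peak had to lie in the domain, near peaks reached 69.0, because peaks across an edge then counted as near.

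Peaks just inside and just outside either limit had medians close to each other. Peaks across an edge with 1 to 100 bp in the domain (389 peaks) had a median percentile of 39.7 and a median width of 250 bp. Peaks that ended up to 100 bp outside (319) had 34.5 and 225 bp, while peaks across an edge with more than 100 bp in the domain (3766) had 85.3 and 822 bp. The rule for this last set favours wide peaks, and height goes with width in this list. In the last 200 bp before the 1 kb limit, the 391 peaks had 37.8 and 252 bp. In the first 200 bp past it, the 414 peaks had 41.4 and 243 bp.

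To take peak width out of the placing, peaks were also counted by the distance of their midpoint from the nearest edge, per kb of sequence at that distance. In domains there were 0.380 peaks per kb, in the first 1 kb outside 0.0479, and between domains beyond 1 kb 0.0239. The density in domains was 15.9 times that beyond 1 kb. For peaks in the highest 10% of the list the contrast was steeper, with 100.9 per Mb in domains and 0.651 per Mb between domains. This ratio of 155 takes in the first 1 kb outside, which the ratio of 15.9 leaves out. Over all sequence between domains the whole list had 0.0244 peaks per kb. Sequence that cannot be mapped was not removed from these lengths.

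Density and height both changed across the edge in steps of 200 bp. The density was 0.505 per kb at 800 to 1000 bp into the domain, 0.161 in its outermost 200 bp, 0.0789 in the first 200 bp outside and 0.0363 at 600 to 800 bp outside. Median height percentiles at the same places were 81.2, 53.3, 46.6 and 37.3. Thus the values were already falling within the outer 800 bp of the domain and went on falling outside it. Past 2000 bp into the domain, which wide domains alone provide, the values were 0.386 per kb and a median percentile of 68.2.

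**Figure D3:**
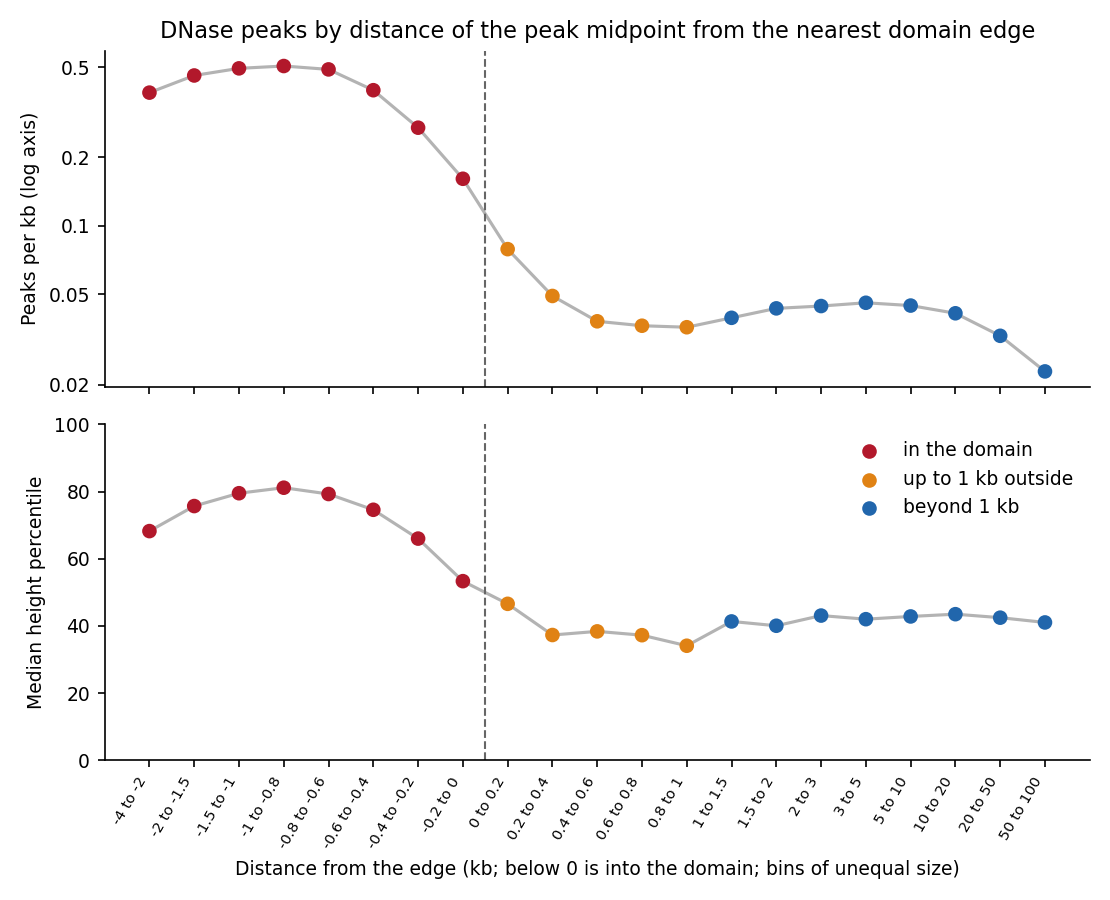
Peaks per kb of sequence (upper panel, log axis) and median height percentile (lower panel) by distance of the peak midpoint from the nearest domain edge, in bins of unequal size in kb; distances below 0 lie in the domain and the dashed line is the edge. The density was 0.505 per kb at 800 to 1000 bp into the domain and 0.0358 at 800 to 1000 bp outside, with higher values from 1000 to 20000 bp and lower ones from 20000 bp outward.

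A shallow trough lay just outside the domains. It was noticed in this profile and its limits were chosen from it, so its values are a description. From 400 to 1000 bp outside there were 0.0367 peaks per kb (1202 peaks), against 0.0449 at 2 to 10 kb (14297 peaks), a ratio of 0.818. The median percentile was 36.6 in the trough and 42.5 at 2 to 10 kb. Density was lower in the trough on 18 of 21 chromosomes and the median percentile on 20 of 21. Among peaks above the list's median height the ratio was 0.682. Beyond 10 kb the density fell too, to 0.0328 at 20000 to 50000 bp and 0.00907 at 100000 to 500000 bp.

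Far peaks lay at a median of 22.1 kb from a domain (quartiles 8.74 and 54.1 kb), and 6960 of them were more than 100 kb away. Their height varied little with this distance. The median percentile was 42.0 at 1 to 2 kb, 43.3 at 10 to 20 kb, 41.0 at 50 to 100 kb and 36.3 beyond 200 kb. Widths followed, with medians of 256, 266, 254 and 218 bp. The median was thus below that of inside peaks at every distance and lowest beyond 200 kb, where the tallest single peak of the list also lay. Of all far peaks 40.6% were above the list's median height.

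Near peaks lay beside domains with a peak somewhat more often than the domains' own share. Of the 2223, 1684 (75.8%, interval 73.9 to 77.5) had a nearest domain that held a peak of its own, while 70.1% of all domains held one. Near peaks beside such a domain had a median percentile of 35.5, and those beside a domain without a peak 35.7. Of domains with a peak 7.74% had a near peak beside them, and of domains without one 5.94%. Domains with a peak were also wider, with a median of 2400 bp against 1600 bp for those without. Domains beside a near peak had a median width of 2000 bp, against 2200 bp for all domains. The part of domain width in these shares was not tested.

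Seen from the domains, 20029 of 28586 (70.1%) held at least 1 peak. The mean was 0.970 peaks per domain (SD over domains 0.925), with a highest count of 18. Exactly 1 peak was found in 14670 domains (51.3%), 2 in 3891 (13.6%), 3 in 976 (3.41%), 4 in 294 (1.03%) and 5 in 113 (0.395%). The usual H3K27ac domain thus held a single open site, and 5359 domains (18.7%, interval 18.3 to 19.2) held 2 or more. These last contained 47.1% of all inside peaks. Counting only peaks above the list's median height, 8.14% of domains held 2 or more. On the autosomes the share of domains with a peak ran from 63.8% on chromosome 3 to 76.7% on chromosome 11.

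The number of peaks went with domain width. Domains without a peak had a median width of 1600 bp, those with 1 peak 2200 bp, with 2 peaks 3000 bp, with 3 peaks 4600 bp and with 4 peaks 5900 bp. Of domains under 1 kb 41.3% held a peak, against 98.6% of domains of 8 kb or more, and for 2 or more peaks these shares were 2.00% and 87.6%. Across all domains, width and number had a Spearman rho of 0.43. Both measures come from the same domains, and a wide domain has more room.

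In number of peaks per kb, narrow domains were the denser. Counted by midpoint, domains under 1 kb had 0.609 peaks per kb, those of 1 to 2 kb 0.460 and those of 2 to 3 kb 0.378. From 3 kb upwards the density was level, between 0.339 and 0.351 per kb. Peaks covered on average 27.7% of a domain under 1 kb, 29.1% of one of 1 to 2 kb and 20.6% of one of 8 kb or more.

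**Figure D4:**
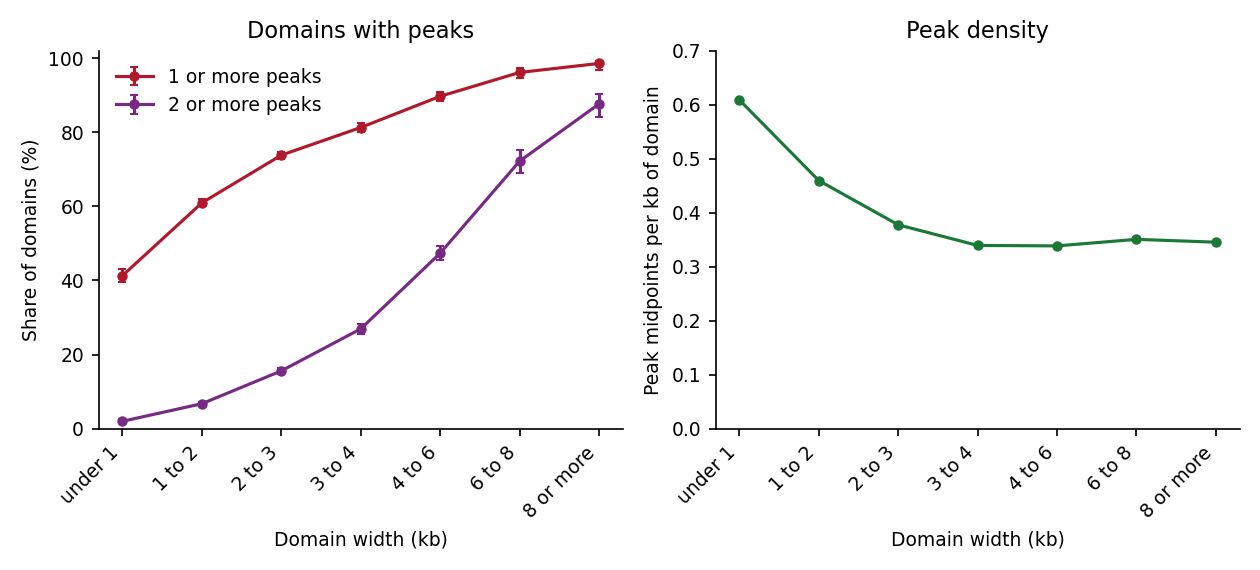
Left, share of domains (%) with 1 or more and with 2 or more peaks by domain width in kb, with Wilson 95% intervals; right, peak midpoints per kb of domain. The share with a peak went from 41.3% under 1 kb to 98.6% at 8 kb or more, while density fell from 0.609 per kb to a level of 0.339 to 0.351 from 3 kb upwards.

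The tallest peak of a domain changed less with domain width. Its median percentile was 75.5 in domains under 1 kb, 80.8 at 1 to 2 kb, 84.3 at 2 to 3 kb and 87.3 at 8 kb or more. Across the 20029 domains with a peak, width and the tallest percentile had a Spearman rho of 0.12. With more peaks in a domain the tallest of them is higher by construction.

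Domains with several peaks combined a tall peak with lower ones. A peak alone in its domain had a median percentile of 83.3 and a width of 731 bp. In domains with 2 peaks the taller had 82.9 and 711 bp, close to a lone peak, and the lower had 37.7 and 261 bp, close to a far peak. In 56.7% of these domains the taller peak was at least 2 times as high as the lower, with a median ratio of 2.31. In domains with 3 peaks the medians from tallest to lowest were 86.1, 56.9 and 27.1. Ranking peaks within a domain sets the order of these values, though not their distance.

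The tallest peak was found about equally often at each place in the row. In domains with 2 peaks it came first along the chromosome in 1933 and last in 1957. In domains with 3 peaks it was the middle one in 32.5% of 975 domains, against 33.3% of places. With 4 peaks it was one of the inner ones in 45.6% of 294 domains, against 50% of places, and with 5 peaks in 58.4% of 113, against 60%.

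Peaks of the same domain were close together. The median space between neighbours was 461 bp (quartiles 219 and 1048; 7707 pairs), and 73.5% of the spaces were under 1 kb. Between far peaks that follow each other the median was 7466 bp (46065 pairs) and 15.7% were under 1 kb. The limits of a domain bound the first of these distances.

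Within domains, peaks lay toward the middle. Of the 27736 inside peaks, 23581 (85.0%) lay wholly in a domain, 4155 reached across an edge, and 27024 had their midpoint in a domain and so a place along it. Of these, 31.5% (31.0 to 32.1) were in the middle 20% of the domain's width and 7.41% (7.11 to 7.73) in the outer 10% at both ends combined, where an even spread would put 20% in each of these parts. The profile was symmetric, with 50.5% of midpoints in the part nearer the domain's start. The share in the middle 20% ran from 29.9% on chromosome 18 to 34.1% on chromosome 3 over the autosomes.

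The central place was most marked for peaks that were alone. In domains with 1 peak 39.1% (38.3 to 39.9) of midpoints were in the middle 20%, with 3.40% in the outer 10% at both ends. With 2 peaks these shares were 24.0% and 10.6%, with 3 peaks 21.8% and 12.8%, and with 4 or more 20.6% (19.0 to 22.3) and 15.6%. Domains with many peaks thus approached an even spread apart from their ends. Peaks of this list do not overlap each other, so peaks that share a domain cannot all be centred in it. The part of this limit in the lower shares was not tested. By width, the middle 20% held 29.5% (26.8 to 32.4) of midpoints in domains under 1 kb, 37.7% at 1 to 2 kb and 21.2% at 8 kb or more, so the share was highest in the second class.

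**Figure D5:**
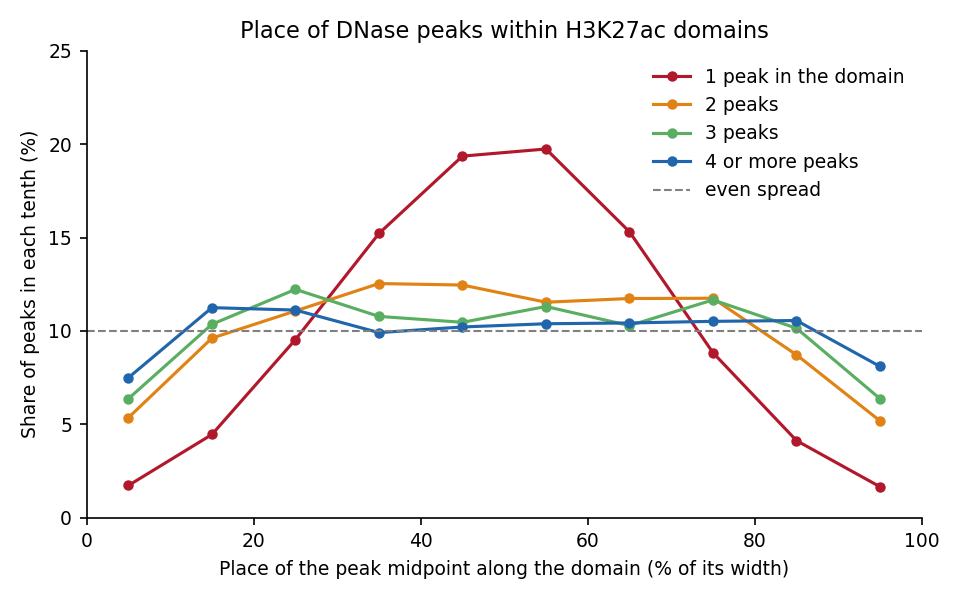
Share of peak midpoints (%, vertical axis) in 10 equal steps along the domain's width (horizontal axis, %), for domains with 1, 2, 3 and 4 or more peaks; the dashed line marks an even spread of 10%. Lone peaks gathered in the middle, with 19.4% and 19.7% in the 2 central steps and 1.73% and 1.66% in the end steps, while domains with 4 or more peaks were close to even except at the ends.

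Tall peaks were more central than low ones. Among midpoints in domains, the middle 20% held 38.4% of peaks at the 80th percentile or above, 30.0% at 60 to 80, 26.7% at 40 to 60, 24.1% at 20 to 40 and 20.8% below 20. The same order held among peaks alone in their domain, from 43.5% (42.4 to 44.6) in the highest of these classes to 27.2% (24.3 to 30.3) in the lowest. Where a domain held 2 or more peaks, 28.5% of the tallest ones and 18.7% of the others were in the middle 20%. From the centre outward in 5 steps, the median percentile of inside peaks was 82.0, 78.3, 72.2, 61.6 and 48.1, and the median width 719, 657, 554, 429 and 306 bp.

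The domains with the most peaks were long. A domain on chromosome Y from 2875401 to 2902600 held 18 peaks over 27200 bp, with heights from 0.0647 to 0.4868. Another on the same chromosome, from 2847401 to 2873400, held 14, as did a domain of 15200 bp on chromosome 11 from 120091201 to 120106400. They were followed by chromosome 18 from 35988801 to 36013000 with 13 peaks, the tallest at 0.7024, and chromosome Y from 2779601 to 2797400 with 12. The tallest peaks of these 5 domains, between 0.4166 and 0.7024, were lower than the 5 tallest inside peaks. Among domains of 4 kb or more, the densest was on chromosome 11 from 77794801 to 77799000, with 6 peaks in 4200 bp.

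Wide domains could also hold few peaks. The widest domain, added after its values were seen and lying on chromosome 2 from 77734601 to 77762200, spanned 27600 bp and held a single peak of height 0.0958, at percentile 42.2, which covered 0.935% of it. The widest domain without a peak lay on chromosome 14 from 27256601 to 27266400 and spanned 9800 bp.

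The X chromosome lay outside the range of the autosomes in this comparison. Of its 1215 peaks 45.8% (43.1 to 48.7) were inside a domain, against 28.8% to 35.3% on the 19 autosomes. Of its 562 domains 80.2% (76.8 to 83.3) held a peak, against 63.8% to 76.7% on the autosomes. It had 2.16 peaks for each domain, against 2.46 to 3.66 on the autosomes, and its domains had a median width of 1600 bp, against 2000 to 2200 bp. In each of 5 bands of peak height the inside share was higher on X, with 62.5% (56.9 to 67.8) on X and 31.4% on the autosomes at percentiles 60 to 80. In the lowest band, with 19.7% (14.9 to 25.6) on X and 15.8% on the autosomes, the intervals overlapped. Its inside peaks had a median percentile of 71.1, within the autosomal range. Male cells carry a single X, and the part of copy number in these values was not tested. On the Y chromosome 52 of 70 peaks were inside (74.3%, interval 63.0 to 83.1), but 44 of these lay in the 3 domains named above. Without those, chosen after their values were seen, 8 of 26 were inside (30.8%, interval 16.5 to 50.0). Of the 15 domains on Y 53.3% held a peak.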

How the data were processed

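The authors deposited 1 list of DNase peaks for the E13.5 library and 1 list of H3K27ac domains for the ChIP-seq and input libraries, both in mm9. Per the submitters' processing notes, BWA 0.6.1-r104, SAMtools and bedtools were used for DNase-seq and CASAVA 1.8.2, Bowtie and SICER for ChIP-seq. The sources used here do not name the DNase peak caller or say whether ChIP libraries were pooled. Per the labels' protocols, nuclei were incubated without added enzyme. The peak columns have no header and were read from their values. The authors made and deposited a score per peak (490 to 1000, with 11147 peaks at 1000), by a step the labels do not state. The authors also deposited a signal height per peak, computed from the reads of the 1 library with a scaling the labels do not state. The third column the authors deposited was read as the −log10 p that their peak caller gave (1.3 to 16, with 175 peaks at 16). The height was turned into a percentile, ties sharing their mean rank. Domain starts are multiples of 200 bp, and each end was read as the last base of a window. Positions are counted from 1. Python 3.11.15 with numpy 2.4.6, pandas 2.3.3 and scipy 1.17.1 was used, and the placing of peaks was tested on simulated data. No simulated peak crossed a domain edge, so the placing of such peaks was not tested. Each peak was assigned to the domain it overlapped most (2 peaks touched more than 1). A gap of 0 bp without overlap (3 peaks) counted as near. Named peaks were the 5 tallest of each class, and named domains the 5 with the most peaks, the widest without a peak and the densest of 4 kb or more. The widest domain of all and the widest peaks were added after their values were seen. Classes, measures and rules were chosen with earlier results of these data known. No mm9 genome or annotation was used, so genes and sequences are not given. The other DNase lists and the E15.5 RNA-seq table were not used here.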

Additional observations from a re-analysis of the deposited data

How the results depend on the processing

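The order inside over far, in height and width, kept its direction under every alternative run (8 for height, 7 for width). The order of near and far peaks did not. With the midpoint required in the domain, near minus far was 0.16 percentile points and 6 bp, and with the whole peak required 27.1 points and 221 bp, since peaks across an edge then count as near. The midpoint rule gave 30.7% inside, 3.33% near, near medians of 42.0 and 265 bp, an inside width of 583 bp (324 bp above far), 0.945 peaks per domain and 17.8% of domains with 2 or more. The whole-peak rule gave 26.8% inside, 7.24% near, inside medians of 71.5 and 539 bp (29.7 points and 280 bp above far), near medians of 69.0 and 480 bp, 0.825 peaks per domain, 15.6% of domains with 2 or more and 34.2% of midpoints in the middle 20%. A near distance of 500 bp gave 1.41% near. A distance of 2 kb gave 4.99% near, with medians of 38.5 and 244 bp (-3.28 points and -15 bp from far). Keeping only peaks above the list's median height gave 44.6% inside, 1.74% near, median percentiles of 85.0, 66.5 and 68.9 and widths of 779, 382 and 416 bp for inside, near and far peaks. Inside then lay 16.0 points and 363 bp above far and near 2.47 points lower (-2.47), with 0.687 peaks per domain, 8.14% of domains with 2 or more and 34.8% in the middle 20%. Joining domains under 1 kb apart gave 0.992 peaks per domain, 19.4% with 2 or more and 30.8% in the middle 20%. Ranking by the authors' score and using the autosomes alone moved no value beyond its 95% interval. No paired analysis was possible because the 2 ChIP-seq and 2 input libraries share 1 deposited list, and for the same reason no library could be left out. The unknown depth of the DNase library limits which weak peaks could be called.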

Other observations

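Of the 5 widest peaks of the E13.5 list, 4 were far from H3K27ac domains, although 80.5% of the 8808 peaks of 945 bp or more were inside one. The widest lay on chromosome 11 from 3029001 to 3038787, with 9787 bp, a height of 0.7745 and a gap of 4.40 kb to a domain, and it was followed at once by another of 6337 bp from 3040883 to 3047219. Next came the tallest peak of the list, of 6214 bp on chromosome 17, and a peak of 4807 bp on chromosome 1 from 24618264 to 24623070. The widest inside peak, of 4242 bp, lay on chromosome 11 from 51668533 to 51672774. As no filter for repeated sequence was applied to the list here, the part of such sequence in these widths was not tested.

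Neighbouring domains were under 800 bp apart in 249 cases, and in 33 of these no base lay between them.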
